A study of Mus musculus with 24 samples.

Results

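Lilrb4a, Lilr4b, Il18r1 and Vsir code for receptors that immune cells carry on their surface. They are described here because their mRNA was lower in both of 2 Nat10-mutant clones of the mouse cell line 32D than in the unmutated line before any treatment. They make up 4 of the 55414 gene identifiers in the count tables, and all 4 were among the 16167 genes that passed the filter on low counts. Since untreated libraries of all 3 genotypes supplied the choice, every difference of these 4 genes that involves a 0 h library is given as a description, with no p-value.

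Lilrb4a is an inhibitory receptor of the leukocyte immunoglobulin-like family. Its tail carries immunoreceptor tyrosine-based inhibitory motifs (ITIMs), which recruit phosphatases such as Ptpn6 (SHP-1) and damp activating signals in mast cells, macrophages and other myeloid cells. Lilr4b, named Lilrb4b in some annotations, is its neighbour, near-identical over most of the coding sequence. Near its end the coding sequence of Lilr4b leaves the reading frame of Lilrb4a, and it lacks the last Lilrb4a stretch. Lilr4b is not counted here as a receptor with ITIMs. Il18r1 is the chain of the interleukin-18 receptor that binds the cytokine. It pairs with Il18rap and signals through Myd88 to NF-kB, as activating receptors of the IL-1 family do. Vsir codes for VISTA, an inhibitory checkpoint protein of the B7 family that is abundant on myeloid cells.

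The 24 libraries of polyadenylated RNA came from 32D cells, a line from mouse bone marrow that depends on interleukin-3 (IL-3), grown per the labels with IL-3 at 10 ng/ml and 10% serum. KO1 and KO2 are labelled Nat10+/- and each is 1 clone, and WT is the wild-type line. Nat10 is the enzyme that acetylates cytidine in RNA. Every genotype was exposed to actinomycin D at 0.05 µg/ml, a drug that binds DNA and blocks transcription, ribosomal RNA synthesis most readily, and was collected at 0, 3, 6 and 9 h, with 2 libraries for each genotype and time. The labels call the libraries biological replicates and do not say that they came from separate cultures, so p-values below reflect how far these libraries differ, and some of that may be technical.

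Depth was even, between 15361601 and 17338939 gene counts per library. Nat10 mRNA averaged 103 ± 7.62 CPM in KO1, 97.2 ± 2.87 CPM in KO2 and 112 ± 1.52 CPM in WT at 0 h (SD, n = 2 each). It was called lower in both clones at 0, 6 and 9 h and in neither at 3 h. Relative to gene counts, spike-in RNA stood between 240 and 353 CPM (counts scaled to a fixed library total) in KO1, between 324 and 844 CPM in KO2 and between 6.92 and 15.9 CPM in WT. The levels below are CPM with library sizes scaled by TMM, which makes them relative to the average transcript of a library and takes no account of the spike-ins. With spike-in totals as the scale, the median log2 difference of all genes from WT lay between -5.05 and -4.16 in KO1 and between -5.87 and -5.53 in KO2 over the 4 times. Subtracting that median cancels the scale, so values near those of TMM come back by construction and are no check on them. For Lilrb4a at 0 h they were -2.44 in KO1 and -2.63 in KO2. In bulk RNA, fewer cells that express a gene and less of its RNA per cell cannot be told apart.

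The labels name the cells lymphoblastocytes, and the marker genes went only partly with that name. The IL-3 receptor chains Il3ra and Csf2rb averaged 62.2 and 257 CPM over the 8 KO1 libraries, 65.1 and 247 CPM in KO2, and 65.3 and 271 CPM in WT. The myeloid factor Spi1 averaged 93.9 CPM in KO1, 83.4 CPM in KO2 and 78.5 CPM in WT. Of the same myeloid progenitor list, Csf2rb2 averaged 257 CPM in KO1, 244 CPM in KO2 and 279 CPM in WT, and Ptprc 178, 152 and 181 CPM. Prtn3, Itgam and Cebpa averaged between 6.94 CPM (Cebpa in KO2) and 31.7 CPM (Cebpa in WT). Ctsg averaged 12.3 CPM in KO1, 0.0140 CPM in KO2 and 9.54 CPM in WT. The remaining genes of the list were near 0, with Mpo at 1.38 CPM in KO1, 1.90 CPM in KO2 and 1.62 CPM in WT. Elane, Csf3r and Cd34 each averaged under 1 CPM in every genotype, and Kit had 0 counts in both clones and 3 in WT. Of the lymphoid markers, Cd4, Cd8a and Ms4a1 had 0 counts in all 24 libraries. The B cell receptor chain Cd79a averaged 12.1 CPM in KO1, 11.6 CPM in KO2 and 15.5 CPM in WT over all times of the drug, and the summed level of the 16 lymphoid markers ran from 4.14 to 37.1 CPM in KO1, from 4.30 to 39.6 CPM in KO2 and from 6.62 to 44.3 CPM in WT. At 0 h, before the drug, that sum reached at most 7.43 CPM in KO1, 5.38 CPM in KO2 and 9.18 CPM in WT, so the higher values belong to drug-treated libraries.

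Lilr4b and Lilrb4a lie next to each other on chromosome 10 (GRCm39, plus strand), Lilr4b at 51356728-51362799 and Lilrb4a at 51367052-51372707, with 4253 bases between them. In the files' annotation both are covered by a read-through gene, Gm49339, which shares 1846 exon bases with Lilrb4a (35.3% of its exon length) and 122 with Lilr4b (2.24%). Gm49339 had 0 counts in all 24 libraries. The file headers show no option to count a read pair for more than one gene, so pairs that fall on shared exon bases may not have been counted for either gene. Gm40645, on the minus strand, shares another 131 bases with Lilrb4a (2.51%), and the counting did not use strand. Il18r1 lies on chromosome 1 at 40504712-40540014, and Vsir on chromosome 10 at 60182630-60208463, inside the span of Cdh23 on the other strand but with 0 exon bases in common with it.

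The coding sequences of Lilrb4a and Lilr4b show how alike the pair is, which bears on how far reads can be told apart. In GENCODE M21 transcripts, the coding sequence has 1005 bases in Lilrb4a-201 and 909 bases in Lilr4b-201. Over 907 aligned positions, 871 were identical (96.0%) and 36 differed. The stretch of 120 coding bases with the most differences, bases 142 to 261 in both, holds 12 of them, given in capitals, 5′ to 3′.
Lilrb4a: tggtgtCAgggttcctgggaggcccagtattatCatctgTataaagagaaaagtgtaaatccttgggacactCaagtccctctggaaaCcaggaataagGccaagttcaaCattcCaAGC
Lilr4b: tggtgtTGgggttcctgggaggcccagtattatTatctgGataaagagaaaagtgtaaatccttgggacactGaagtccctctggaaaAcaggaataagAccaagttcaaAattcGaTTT
The longest run without a difference is 126 bases, coding bases 302 to 427 of Lilrb4a-201.
Lilrb4a and Lilr4b: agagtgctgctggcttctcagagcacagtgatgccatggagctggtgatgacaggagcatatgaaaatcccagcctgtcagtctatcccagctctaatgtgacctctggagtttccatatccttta
The ends of the coding sequences are where the 2 genes part. Capitals below mark bases with no identical partner, and 98 coding bases of Lilrb4a have no partner in Lilr4b. In Lilr4b 2 coding bases have no partner in Lilrb4a, and the shared bases after them are read in another frame.
Lilrb4a, last 180 coding bases: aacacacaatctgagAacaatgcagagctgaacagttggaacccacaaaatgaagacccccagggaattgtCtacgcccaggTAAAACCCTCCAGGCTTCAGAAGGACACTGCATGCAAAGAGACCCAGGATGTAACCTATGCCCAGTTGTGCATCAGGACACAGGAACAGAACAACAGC
Lilr4b, last 90 coding bases: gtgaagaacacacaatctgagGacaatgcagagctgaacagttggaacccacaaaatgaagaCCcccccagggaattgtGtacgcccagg
Of all windows of 100 bases in Lilrb4a-201, 14.3% occur letter for letter in a Lilr4b transcript, and for windows of 150 bases the share was 7.47%. Counts of the pair are therefore uncertain to the extent that reads from these windows were lost or placed in the wrong gene, and the summed count is given beside the main results.

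Lilrb4a was the most abundant of the 4 receptors in every genotype. Per kilobase of exon at 0 h, its level was 4.76 ± 0.49 CPM in KO1, 4.14 ± 0.11 CPM in KO2 and 25.4 ± 0.40 CPM in WT (SD, n = 2 each). Lilr4b followed with 2.45 ± 0.054 CPM per kb in KO1, 2.28 ± 0.12 in KO2 and 16.7 ± 0.39 in WT. The per-kb values of both genes use the full exon length, bases shared with Gm49339 included. Vsir had 1.58 ± 0.044 CPM per kb in KO1, 0.523 ± 0.051 in KO2 and 4.22 ± 0.35 in WT. Il18r1 was lowest in each, with 0.521 ± 0.036 CPM per kb in KO1, 0.188 ± 0.10 in KO2 and 3.17 ± 0.090 in WT. Among all genes tested, 88.8% had a lower CPM than Lilrb4a in WT at 0 h, against 48.9% for Il18r1.

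**Figure D1:**
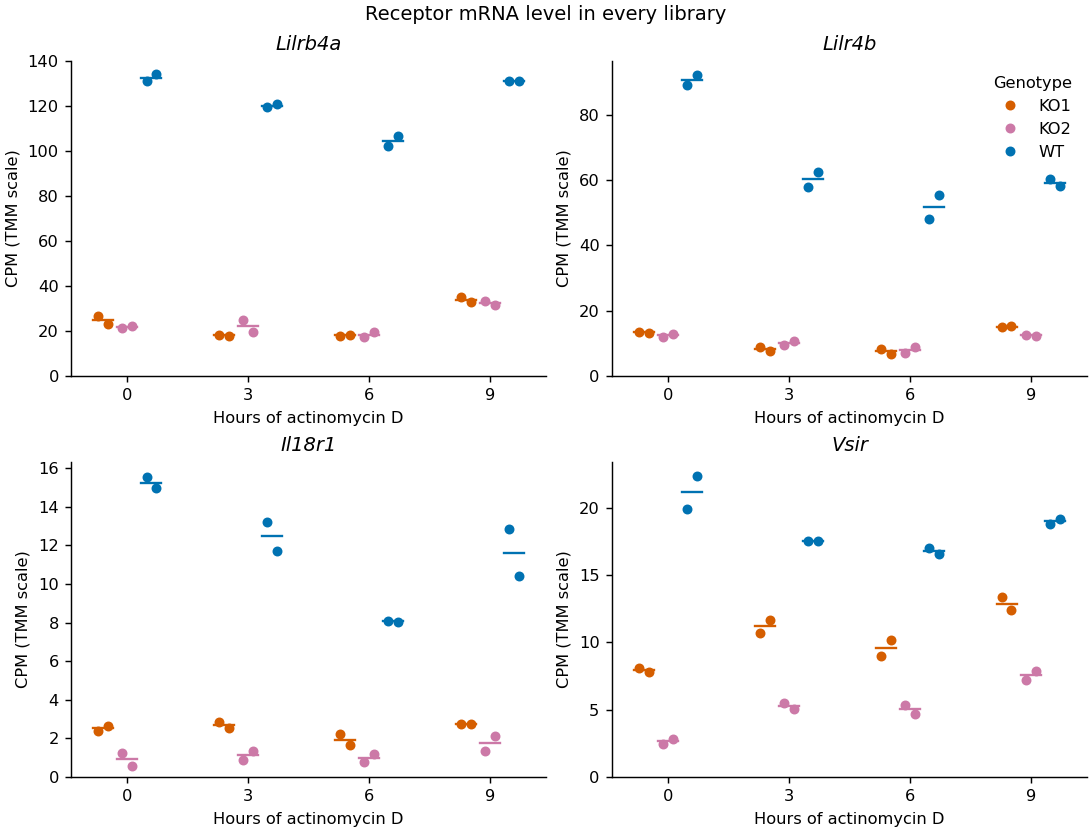
Level of the 4 receptor mRNAs (vertical axis, CPM on the TMM scale, from 0) at 0, 3, 6 and 9 h of actinomycin D (horizontal axis) in KO1, KO2 and WT, left to right within each time. Points are libraries and bars are means of 2. No clone library reaches a WT library of the same time in any panel, and how many of all genes separate likewise was not counted. The genes were chosen on the 0 h values.

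Before treatment Lilrb4a was at 18.7% of the WT level in KO1 and 16.3% in KO2, and Lilr4b at 14.7% in KO1 and 13.6% in KO2. Lilrb4a stood at 26.7 and 23.1 CPM in the KO1 libraries at 0 h and at 21.3 and 22.1 CPM in the KO2 libraries, against 131 and 134 CPM in the WT libraries. Lilr4b stood at 13.5 and 13.1 CPM in KO1 and at 11.9 and 12.8 CPM in KO2, against 89.4 and 92.4 CPM in WT. Every clone library was thus far below both WT libraries for either gene, at the time on which the genes were chosen. The fitted log2 difference from WT was -2.42 in KO1 and -2.62 in KO2 for Lilrb4a, and -2.77 in KO1 and -2.87 in KO2 for Lilr4b. Summed, the pair gave -2.55 in KO1 and -2.72 in KO2.

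Il18r1 and Vsir were low in both clones and lower in KO2 than in KO1. Il18r1 stood at 2.39 and 2.63 CPM in KO1 and at 1.25 and 0.561 CPM in KO2, against 15.57 and 14.96 CPM in WT at 0 h. The KO2 values rest on 20 and 9 counts, so they are the least precise of the set. With 1 library left out, the fitted log2 difference of KO2 from WT ran from -4.75 to -3.60, against -4.06 with all. Vsir, the checkpoint protein, stood at 8.09 and 7.78 CPM in KO1 and at 2.44 and 2.80 CPM in KO2, against 19.9 and 22.4 CPM in WT. Its fitted log2 difference from WT at 0 h was -1.41 in KO1 and -3.01 in KO2.

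At 3, 6 and 9 h, times other than the 0 h on which the genes were chosen, all 4 receptors were lower in both clones. Each of the 6 comparisons of a clone with WT at the same time called 4 of 4 lower at an adjusted p under 0.05, by edgeR's quasi-likelihood test with Benjamini-Hochberg adjustment over all 16167 genes. Lower calls made up 16.7% of all genes at 3 h, 17.4% at 6 h and 15.1% at 9 h for KO1, and 17.6%, 16.8% and 16.5% for KO2 at the same times. Over all genes, 770 (4.76%) were called lower in all 6 comparisons and 886 (5.48%) higher in all 6. The same clones were measured at every time, so these comparisons show that the low levels were still there at later times, not that other clones have them.

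Lilrb4a stayed low relative to WT at each later time. At 3 h it had 18.2 and 17.7 CPM in KO1 and 24.8 and 19.6 CPM in KO2, against 119.7 and 121 CPM in WT, with log2 differences of -2.75 ± 0.07 (SE, adjusted p = 4.11e-59) in KO1 and -2.45 ± 0.07 (adjusted p = 2.57e-56) in KO2. At 9 h it had 34.96 and 32.6 CPM in KO1 and 33.4 and 31.4 CPM in KO2, against 131 CPM in both WT libraries, with log2 differences of -1.96 ± 0.06 (adjusted p = 5.43e-52) in KO1 and -2.01 ± 0.06 (adjusted p = 6.64e-54) in KO2. The level in the clones was thus 25.8% of WT in KO1 and 24.7% in KO2 at 9 h, against 14.9% and 18.4% at 3 h. At 6 h, when WT was at its lowest, the shares were 17.1% in KO1 and 17.5% in KO2.

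Lilr4b ran beside its neighbour. Its 3 h libraries held 8.69 and 7.63 CPM in KO1 and 9.33 and 10.7 CPM in KO2, against 58.1 and 62.6 CPM in WT, and its 9 h libraries held 14.8 and 15.4 CPM in KO1 and 12.5 and 12.2 CPM in KO2, against 60.3 and 58.4 CPM in WT. The log2 differences from WT were -2.89 ± 0.10, -2.80 ± 0.10 and -1.97 ± 0.09 in KO1 and -2.59 ± 0.10, -2.70 ± 0.10 and -2.27 ± 0.09 in KO2 at 3, 6 and 9 h. The highest of these 6 adjusted p-values was 5.58e-39. Summed with Lilrb4a, which takes away any exchange of reads between the 2, the pair lay between -2.79 and -1.96 in KO1 and between -2.57 and -2.09 in KO2.

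Il18r1, the IL-18-binding chain, kept low counts in the clones throughout, with between 27 and 48 per library in KO1 and between 9 and 39 in KO2, against between 126 and 263 in WT. At 6 h it stood at 2.22 and 1.62 CPM in KO1 and at 0.781 and 1.17 CPM in KO2, against 8.08 and 8.04 CPM in WT, which was the lowest WT group. Its log2 differences from WT were -2.21 ± 0.19, -2.06 ± 0.22 and -2.09 ± 0.19 in KO1 and -3.48 ± 0.23, -3.04 ± 0.24 and -2.74 ± 0.20 in KO2 at 3, 6 and 9 h. The highest of these adjusted p-values was 3.94e-14.

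Vsir showed the smallest difference of the 4 in KO1. At 3 h it stood at 10.7 and 11.7 CPM in KO1 and at 5.49 and 5.02 CPM in KO2, against 17.5 CPM in both WT libraries, and at 9 h at 13.3 and 12.4 CPM in KO1 and 7.19 and 7.89 CPM in KO2, against 18.8 and 19.2 CPM in WT. The log2 differences from WT were -0.65 ± 0.12 (adjusted p = 4.62e-06), -0.81 ± 0.12 (2.81e-08) and -0.56 ± 0.11 (2.28e-05) in KO1 at 3, 6 and 9 h. In KO2 they were -1.74 ± 0.14, -1.74 ± 0.14 and -1.33 ± 0.12, with a highest adjusted p of 4.89e-17. The KO1 level was 63.8% of WT at 3 h and 67.7% at 9 h, against 30.0% and 39.7% for KO2.

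**Figure D2:**
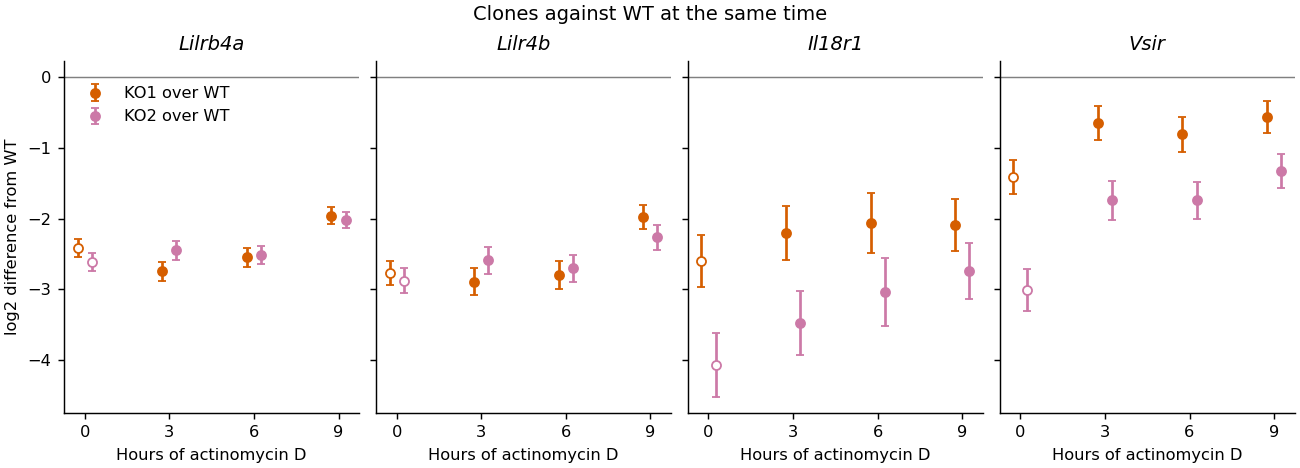
Log2 difference of KO1 and KO2 from WT at the same time (vertical axis) over hours of actinomycin D (horizontal axis) for each receptor, with 95% intervals from the fit over 24 libraries. Open points at 0 h are the values the genes were chosen on, and all filled points and their intervals lie below 0.

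Across the 12 groups, the WT groups held the 4 highest means of every receptor. For Lilrb4a the order was WT at 0, 9, 3 and 6 h, with 133, 131, 120.4 and 104 CPM, and no neighbours among them overlapped. KO1 and KO2 at 9 h came next with 33.8 ± 1.67 and 32.4 ± 1.41 CPM and overlapped each other, and KO1 at 3 and 6 h, 17.9 CPM each, were lowest and also overlapped. For Lilr4b, WT at 0 h (90.9 ± 2.13 CPM) stood apart from WT at 3 h (60.3 ± 3.19 CPM), which overlapped WT at 9 h (59.4 ± 1.39 CPM). The lowest Lilr4b groups, KO1 at 3 h and both clones at 6 h, overlapped one another between 6.72 and 8.85 CPM.

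For Il18r1 the KO1 groups at 9, 3 and 0 h overlapped, between 2.39 and 2.85 CPM, and so did the KO2 groups at 3, 6 and 0 h, between 0.561 and 1.32 CPM. Vsir gave the most even ladder, with 4 WT groups between 16.8 and 21.1 CPM, then 4 KO1 groups between 7.93 and 12.9 CPM and 4 KO2 groups between 2.62 and 7.54 CPM. The lowest KO1 group, at 0 h, overlapped the highest KO2 group, at 9 h.

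Set directly against each other, the clones differed in Vsir and Il18r1 and hardly in the Lilrb4 pair. Vsir was lower in KO2 than in KO1 at 3, 6 and 9 h, by log2 differences of -1.09 ± 0.15, -0.93 ± 0.15 and -0.77 ± 0.13, with a highest adjusted p of 1.87e-06. Il18r1 was lower in KO2 at 3 h (-1.27 ± 0.31, adjusted p = 0.00147) and at 6 h (-0.97 ± 0.32, adjusted p = 0.029), while at 9 h the difference of -0.66 ± 0.26 did not pass (adjusted p = 0.0891). Of all genes, 6.34% were called lower in KO2 than in KO1 at 3 h, 7.83% at 6 h and 7.54% at 9 h. At 0 h the log2 differences were -1.59 ± 0.18 for Vsir and -1.47 ± 0.32 for Il18r1, given as a description.

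These Il18r1 calls rest on few counts. Leaving out KO2 replicate 1 at 3 h gave an adjusted p of 0.0586. At 6 h the call was lost without KO1 replicate 1 (adjusted p = 0.327), without KO2 replicate 1 (0.281), with DESeq2 (0.0529) and in a fit of the compared groups alone (0.102), whereas at 9 h the difference passed without KO2 replicate 2 (0.0379).

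Of the 3 drug times, the Lilrb4a difference between the clones passed at 3 h, where KO2 was higher by 0.30 ± 0.09 on the log2 scale (adjusted p = 0.0186, against a background of 5.61% of genes called higher). That call was lost without KO1 replicate 1 (adjusted p = 0.0636), KO1 replicate 2 (0.14) or KO2 replicate 1 (0.585), and with spike-in totals as the scale the difference was -0.67. At 0 h it was -0.20 ± 0.09. For Lilr4b no difference between the clones passed at 3, 6 or 9 h, with 95% intervals of the log2 difference from 0.03 to 0.56 at 3 h, -0.17 to 0.37 at 6 h and -0.50 to -0.08 at 9 h. The adjusted p at 9 h was 0.0634, and missing the threshold does not show that the clones had the same level. With spike-in totals as the scale Lilrb4a was called lower in KO2 at 3, 6 and 9 h (-0.67, -1.11 and -1.72), as was Lilr4b (-0.68, -1.04 and -1.96), where the median of all genes was -0.97, -1.14 and -1.67.

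**Figure D3:**
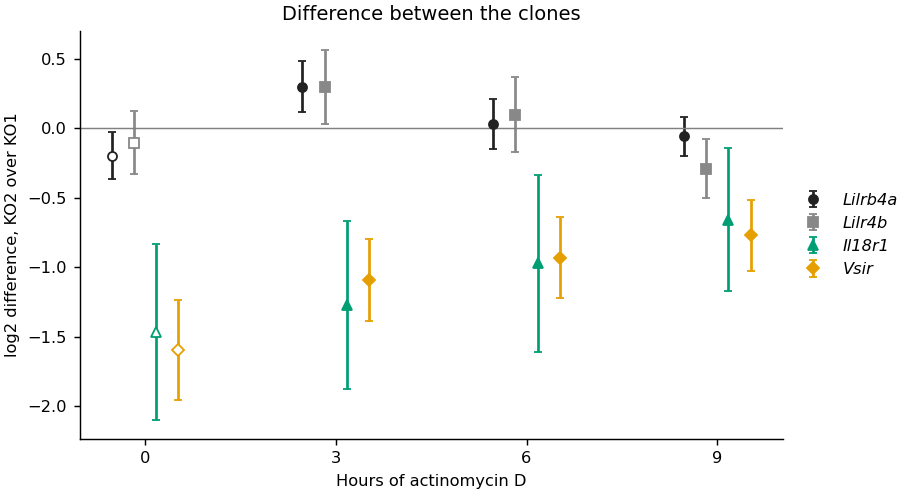
Log2 difference of KO2 over KO1 (vertical axis) at each time of actinomycin D (horizontal axis) for the 4 receptors, with 95% intervals. Open points at 0 h come from libraries the genes were chosen on. Vsir and Il18r1 lie below 0 at every time, and Lilrb4a and Lilr4b lie within 0.30 of it.

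The time course within each genotype is relative to the average transcript, so a rise can mean slower loss than the average. Differences from 0 h are described without a test, since the choice favours high WT and low clone values at that time. In WT the log2 difference of 3 h from 0 h was -0.59 ± 0.07 for Lilr4b, -0.29 ± 0.15 for Il18r1, -0.27 ± 0.11 for Vsir and -0.14 ± 0.05 for Lilrb4a. From 3 to 6 h, 3 of 4 were called lower (26.9% of all genes), with Il18r1 at -0.63 ± 0.16 (adjusted p = 0.00043), Lilr4b at -0.22 ± 0.07 (0.00829) and Lilrb4a at -0.21 ± 0.05 (0.000368). From 6 to 9 h the same 3 were called higher (18.5% of all genes), Lilrb4a by 0.33 ± 0.05 (adjusted p = 2.6e-08), Il18r1 by 0.53 ± 0.16 (0.00449) and Lilr4b by 0.19 ± 0.07 (0.0254). Vsir, at 0.18, did not pass (0.211). At 9 h the difference from 0 h in WT was -0.61 ± 0.07 for Lilr4b and -0.39 ± 0.14 for Il18r1, and nearer 0 for Vsir (-0.15) and Lilrb4a (-0.02).

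Single libraries carried several of the smaller WT calls. Lilr4b from 3 to 6 h was lost without WT replicate 2 at 3 h (adjusted p = 0.143) or replicate 1 at 6 h (0.275), and from 6 to 9 h without replicate 1 at 6 h (0.489) or either 9 h library (0.165 and 0.0569). Il18r1 from 6 to 9 h was lost without WT replicate 1 at 9 h (0.163). The Lilrb4a rise from 6 to 9 h passed whichever library was left out, but with spike-in totals as the scale it was lost (0.32, adjusted p = 0.0532), as was that of Lilr4b (0.18, adjusted p = 0.376).

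In KO1 the log2 difference of 3 h from 0 h was -0.47 ± 0.09 for Lilrb4a, -0.71 ± 0.13 for Lilr4b and 0.50 ± 0.14 for Vsir, the last at 0.33 with spike-in totals as the scale. From 3 to 6 h edgeR and DESeq2 both called 0 of the 4, against 54.2% of all genes called by edgeR. The lowest adjusted p there was 0.118, for Il18r1 at -0.49, and the 95% intervals of all 4 held 0, so 0 passed an unadjusted p of 0.05 as well. With spike-in totals as the scale, 3 of the 4 were called lower, where 7568 of 16167 genes were called in either direction. From 6 to 9 h, Lilr4b rose by 1.02 ± 0.12 (adjusted p = 6.54e-12), Lilrb4a by 0.92 ± 0.08 (6.86e-18) and Vsir by 0.43 ± 0.13 (0.00386), against 19.8% of all genes called higher. The Vsir rise was lost without KO1 replicate 1 at 6 h (0.102) or replicate 1 at 9 h (0.0617). At 9 h the difference from 0 h was 0.44 ± 0.08 for Lilrb4a and 0.70 ± 0.13 for Vsir.

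In KO2, Vsir had 2.62 ± 0.26, 5.25 ± 0.33, 5.02 ± 0.48 and 7.54 ± 0.49 CPM at 0, 3, 6 and 9 h. Its log2 difference of 3 h from 0 h was 1.0 ± 0.20, or 0.32 with spike-in totals as the scale, and that of Lilr4b was -0.31 ± 0.12. From 3 to 6 h, Lilrb4a (-0.27 ± 0.09, adjusted p = 0.00634) and Lilr4b (-0.33 ± 0.13, adjusted p = 0.0276) were called lower, as were 29.4% of all genes. From 6 to 9 h all 4 were called higher, against 20% of all genes, with Lilrb4a at 0.83 ± 0.08 (3.9e-16), Lilr4b at 0.63 ± 0.12 (8e-06), Vsir at 0.59 ± 0.15 (0.000868) and Il18r1 at 0.82 ± 0.32 (0.0339). At 9 h the difference from 0 h was 1.52 ± 0.18 for Vsir, 0.58 ± 0.08 for Lilrb4a and 0.93 ± 0.34 for Il18r1. With spike-in totals as the scale these were 0.39, -0.55 and -0.19, so the sign of Lilrb4a and Il18r1 turned and the Vsir value shrank.

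Among the KO2 calls from 3 to 6 h, Lilrb4a was lost without replicate 1 at 3 h (adjusted p = 0.46) or replicate 1 at 6 h (0.154), and Lilr4b without replicate 2 at 3 h (0.275) or replicate 1 at 6 h (0.38). Il18r1 from 6 to 9 h was lost without replicate 1 at 6 h (0.289) or replicate 2 at 9 h (0.476), and with spike-in totals (0.0595). The 6 to 9 h rises of Lilrb4a, Lilr4b and Vsir passed whichever KO2 library was left out.

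Whether the change from 3 to 9 h differed between clone and WT was tested directly, leaving out the 0 h libraries that supplied the choice. In KO1 it was larger than in WT for Lilrb4a, by 0.79 ± 0.10 on the log2 scale (adjusted p = 1.27e-10), and for Lilr4b, by 0.91 ± 0.14 (1.67e-07), against 11% of all genes called higher in this test. In KO2 it was larger for Lilrb4a, by 0.43 ± 0.09 (0.000217), against 9.99% of all genes, and this call was lost without KO2 replicate 2 at 3 h (adjusted p = 0.0755) and with spike-in totals (0.30, adjusted p = 0.412). Il18r1 and Vsir did not pass in either clone, with 95% intervals from -0.45 to 0.68 and from -0.24 to 0.41 in KO1. In KO2 the intervals were 0.02 to 1.44 for Il18r1 (adjusted p = 0.151) and 0.03 to 0.78 for Vsir (adjusted p = 0.131).

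Per kilobase, Lilrb4a exceeded Lilr4b in every library, and the ratio moved with time in all genotypes. It averaged 1.94 ± 0.16 in KO1, 1.82 ± 0.045 in KO2 and 1.52 ± 0.012 in WT at 0 h (SD, n = 2 each), and 2.33 ± 0.18 in KO1, 2.74 ± 0.063 in KO2 and 2.30 ± 0.054 in WT at 9 h. At 0 h both clones lay above both WT libraries, and at 9 h KO1 overlapped WT. The ratio is a description and no test was made on it, and windows shared by the pair limit it. Exon bases shared with Gm49339, 1846 in Lilrb4a and 122 in Lilr4b, limit it as well. Pairs on them may be missing, and to an unlike extent in the 2 genes.

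**Figure D4:**
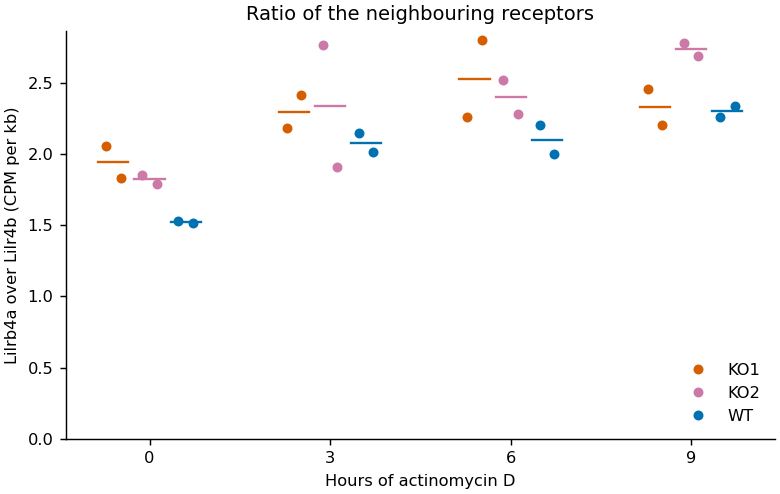
Ratio of Lilrb4a to Lilr4b in CPM per kb of exon (vertical axis, from 0) by hours of actinomycin D (horizontal axis) in KO1, KO2 and WT. Points are libraries and bars are means of 2, and the WT mean was 1.52 at 0 h and 2.30 at 9 h.

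Over the 24 libraries the 4 genes varied together, which their shared difference between clones and WT, on which they were chosen, brings about in part. Pearson's r of log2 CPM was 0.98 between Lilrb4a and Lilr4b, 0.91 between Il18r1 and either of them, 0.90 between Il18r1 and Vsir, and 0.77 and 0.73 between Vsir and the Lilrb4 pair. All libraries share the same 3 cell populations, so these are descriptions. Among 10254 genes whose mean level was 5 CPM or more, Wbp2 had the pattern most like that of Lilrb4a (r = 0.95), Lilr4b (0.94) and Il18r1 (0.94), and Tarm1, a myeloid receptor of the immunoglobulin superfamily, came second for Lilrb4a (0.92), Il18r1 (0.93) and Vsir (0.88). The gene most like Vsir was Lyz2, which codes for lysozyme (0.92), and Cd74, the invariant chain of MHC class II, came next after Tarm1 (0.87). The remaining genes among the 3 most alike were Mrpl38, a protein of the mitochondrial ribosome, for Lilrb4a (0.89) and Lilr4b (0.91), Slc2a3, a glucose transporter, for Lilr4b (0.92), and Anxa1, which codes for annexin A1, for Il18r1 (0.90).

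Promoter sequences were at hand for 3 of the 4 genes, in RefSeq on GRCm38.p6, and are shown because the genes were low in the same clones. The 250 bases before the start follow, 5′ to 3′ on the plus strand, at chr10:51480362-51480611 for Lilr4b, chr1:40465302-40465551 for the most upstream of 3 starts of Il18r1, and chr10:60346601-60346850 for Vsir. Capitals mark a match to a searched motif.
Lilr4b: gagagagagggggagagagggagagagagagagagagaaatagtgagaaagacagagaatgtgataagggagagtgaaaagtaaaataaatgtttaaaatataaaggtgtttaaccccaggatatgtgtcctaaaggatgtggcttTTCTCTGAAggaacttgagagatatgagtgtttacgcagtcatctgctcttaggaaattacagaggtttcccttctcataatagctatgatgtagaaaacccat
Il18r1: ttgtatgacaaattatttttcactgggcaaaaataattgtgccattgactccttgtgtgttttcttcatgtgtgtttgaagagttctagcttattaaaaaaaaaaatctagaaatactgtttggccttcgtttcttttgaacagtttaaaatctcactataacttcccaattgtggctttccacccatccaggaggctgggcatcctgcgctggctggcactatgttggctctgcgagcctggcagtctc
Vsir: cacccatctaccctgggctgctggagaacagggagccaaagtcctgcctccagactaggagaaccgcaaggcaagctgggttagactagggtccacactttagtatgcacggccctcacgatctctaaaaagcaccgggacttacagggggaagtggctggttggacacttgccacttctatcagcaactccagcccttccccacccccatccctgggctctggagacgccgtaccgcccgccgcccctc
Both strands were searched for GAGGAA, the core of PU.1-type sites, TTNNGCAA for C/EBP-type sites, TTCNNNGAA for STAT-type sites, ACGTG for the hypoxia response core, TGTGGT for RUNX-type sites and AGATAA for GATA-type sites. The single match was TTCNNNGAA in Lilr4b, from base -104 to base -96 before the start, and none of these letters was found in the Il18r1 and Vsir windows. Over 27025 promoters of the same length, 7.18% held TTCNNNGAA, 23.1% GAGGAA, 9.55% TTNNGCAA, 16.6% ACGTG, 14.2% TGTGGT and 10.3% AGATAA.

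The partner of Il18r1 was also lower in the clones, by less. Il18rap, the accessory chain, lies 14.5 kb downstream of Il18r1 and was called lower in all 6 comparisons at 3, 6 and 9 h, with log2 differences between -0.98 (KO2 at 3 h) and -0.38 (KO1 at 9 h). At 0 h its level was 67.0 ± 4.03 CPM in KO1, 54.6 ± 1.35 CPM in KO2 and 85.2 ± 2.80 CPM in WT. Sigirr, an inhibitory receptor of the IL-1 family, was called higher in all 6, between 0.28 (KO1 at 3 h) and 0.58 (KO1 at 9 h). The other 5 receptors of the family list did not pass the filter on low counts.

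Genes of the signal path of Il18r1 were more often called higher than lower, in a list that also holds inhibitors (Irak3, Tollip, Nfkbia and Tnfaip3). Of its 20 genes for signalling from the IL-18 and IL-1 receptors, all tested, 3 were called higher in all 6 comparisons and 0 lower by edgeR. Per comparison, between 5 and 9 were called higher and between 0 and 4 lower. Of all genes, 20.1%, 18.4% and 19.3% were called higher in KO1 than in WT at 3, 6 and 9 h, and 21.1%, 17.5% and 18.7% in KO2. Between 15.1% and 17.6% of all genes were called lower in these comparisons. The median log2 difference of the list lay between 0.03 and 0.13, and that of all genes between -0.02 and 0.02. Nfkb1 and Rela, both subunits of NF-kB, were called higher in all 6, with means over the 6 of 0.40 and 0.33. Of the 10 ligands and soluble regulators, 4 were tested and 0 were called the same way in all 6 comparisons by edgeR, with medians between -0.12 and 0.33.

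Genes around the Lilrb4 pair gave a mixed picture. Of inhibitory receptors with ITIM tails other than Lilrb4a, 9 of 22 were tested and 0 were called the same way in all 6 comparisons by edgeR. Between 0 and 3 of the 9 were called higher and between 0 and 5 lower per comparison, with medians between -0.35 and 0.18. Of all genes, between 17.5% and 21.1% were called higher and between 15.1% and 17.6% lower. Of the 16 tested effectors and activating adaptors, 3 were higher in all 6 (18.8%) and 2 lower (12.5%), against 5.48% and 4.76% of all genes. Their medians lay between 0.10 and 0.17. Ptpn6, the phosphatase that ITIMs recruit, was higher with a mean log2 difference of 0.28, and Inppl1, an inositol phosphatase, with 0.30. Tyrobp (DAP12), an adaptor of activating myeloid receptors, was lower with a mean of -1.06, and Fcer1g, the common gamma chain of Fc receptors, with -0.23.

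Of 8 reported binding partners of LILRB4 or VISTA, known in part from human proteins, 5 were tested and none was called the same way in all 6 comparisons by edgeR, with medians between -0.24 and 0.00. Lgals9 (galectin-9) was called higher in KO2 at 3, 6 and 9 h (0.68, 0.58 and 0.66), and in KO1 it was called lower at 3 h (-0.25) and higher at 9 h (0.13). Its level was 53.4 ± 0.046 CPM in KO1, 159 ± 2.57 CPM in KO2 and 67.1 ± 0.10 CPM in WT at 0 h. Selplg (PSGL-1), which binds VISTA, was called lower at 3 and 6 h in both clones, with a mean over the 6 comparisons of -0.46. Apoe had a mean of -0.18 and Itgav, an integrin chain, of -0.04. Fibronectin (Fn1) had 0 counts in the 4 clone libraries of 0 h, against 1.06 and 1.78 CPM in the WT libraries.

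Other checkpoint receptors went both ways. Of 16 tested genes of the B7 and CD28 families and related receptors (29 listed), 3 were higher in all 6 comparisons (18.8%) and 2 lower (12.5%), against 5.48% and 4.76% of all genes, with medians between -0.27 and 0.04. Tigit was higher with a mean of 1.32 and Tnfrsf14 with 0.75, while Havcr2 (TIM-3) was lower with -0.80 and Tnfsf9 with -0.33. At 0 h Tigit was near the detection limit, with 1.01 ± 0.36 CPM in KO1, 1.03 ± 0.31 CPM in KO2 and 0.533 ± 0.42 CPM in WT, and its libraries overlapped.

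**Figure D5:**
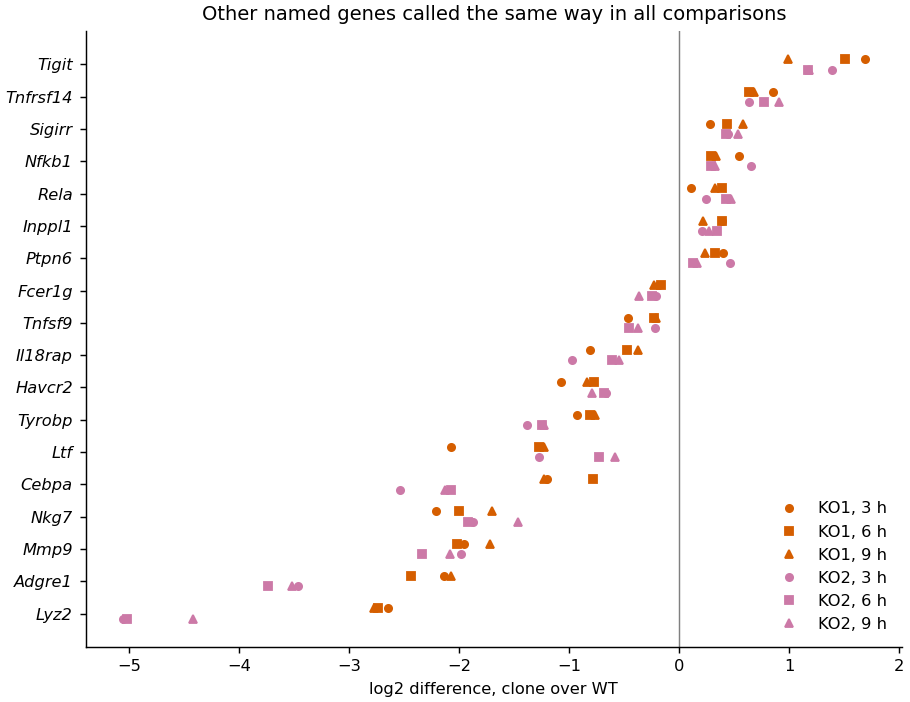
Log2 difference of clone over WT (horizontal axis) for the 18 named genes of the lists that were called the same way in all 6 comparisons (rows), at 3, 6 and 9 h in KO1 and KO2. Tigit has the highest mean, 1.32, and Lyz2 the lowest, -3.78.

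Some markers of mature myeloid cells were lower in the clones as well, in short lists. The summed level of 10 neutrophil markers ran from 13.2 to 24.2 CPM in KO1, from 11.4 to 25.7 CPM in KO2 and from 35.3 to 63.0 CPM in WT, of which Mmp9 made up most. Mmp9 was lower with a mean log2 difference of -2.02 and Ltf with -1.20, while the defining genes Ly6g, S100a8 and S100a9 had between 0 and 32 counts in all 8 libraries of a genotype. Of 4 neutrophil markers tested, 2 were lower in all 6 comparisons, and of 7 macrophage and monocyte markers, 2 were, Lyz2 (-3.78) and Adgre1 (F4/80, -2.90), against 4.76% of all genes. Other macrophage markers went both ways in their means over the 8 libraries of a genotype. Csf1r averaged 12.2 CPM in KO1, 9.96 in KO2 and 6.75 in WT. Cd14 (45.0, 37.4 and 34.3 CPM) and Fcgr1 (90.4, 77.5 and 73.3 CPM) were also higher in the clones, while Cd68 and Siglec1 were lower. The summed macrophage markers overlapped, with 203 to 385 CPM in KO1, 166 to 326 CPM in KO2 and 279 to 387 CPM in WT. C1qa, C1qb and Marco had 0 counts throughout. Cebpa, a transcription factor of granulocyte and monocyte development, was lower with a mean of -1.66, the only one of 13 tested myeloid progenitor markers to be called in all 6.

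Of 10 natural killer and innate lymphoid markers, 2 were tested, and Nkg7, a protein of cytotoxic granules, was lower with a mean of -1.87. Their sum ran from 7.69 to 17.4 CPM in KO1, from 7.17 to 18.1 CPM in KO2 and from 18.4 to 42.4 CPM in WT, while Ncr1, Klrb1c and Prf1 had 0 counts. Mast cell markers summed to 154 to 203 CPM in KO1, 155 to 238 CPM in KO2 and 159 to 244 CPM in WT, almost all of it Gata2, with Fcer1a and Tpsb2 at 0. Dendritic cell markers stayed between 2.98 and 9.96 CPM in KO1, 3.00 and 9.64 CPM in KO2 and 2.43 and 11.2 CPM in WT. No gene of the lymphoid, mast cell, dendritic or stromal lists was called the same way in all 6 comparisons by edgeR. At 0 h all 5 tested stromal genes were lower in both clones, and at 3, 6 and 9 h edgeR called 0 of the 5 lower. Over all times Bgn had 0 counts in KO1, 2 in KO2 and 79 in WT, and Col3a1 0, 0 and 13. Sparc had 4, 3 and 35 counts, and Fn1 4, 13 and 62. Bgn, Sparc and Fn1 thus passed the filter on their WT counts. That favoured lower clone values in advance, so the 0 h count is not set against all genes. The part of these other cell types and states in the low receptor levels was not tested.

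Some genes near the receptors were also lower in the clones. Within 250 kb, Gm40645, Il18rap, Ascc1, Spock2, Chst3, Psap and Cdh23 passed the filter besides the members. Psap, 44.3 kb from Vsir, was lower in all 6 comparisons, as were 4.76% of all genes. Its log2 differences lay between -0.50 and -0.31, less than Vsir in each, while Ascc1, 247 kb away, was called lower in 5 of 6. Values of Spock2 and Chst3, 212 and 128 kb from Vsir, are not given here, so the region as a whole is not described. Cdh23, which encloses Vsir on the other strand, had 0.258 ± 0.010 CPM in KO1, 0.125 CPM in both KO2 libraries and 0.414 ± 0.084 CPM in WT at 0 h, and was called lower at 6 and 9 h. Gm40645, which overlaps Lilrb4a on the other strand, was called lower in all 6, but unstranded counts cannot tell its reads from those of Lilrb4a where they overlap.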

How the data were processed

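RNA-seq counts per gene in 24 libraries were deposited by the authors, 1 table per library, as whole numbers without normalization. Per the file headers, the authors counted read pairs with both ends mapped over exons with featureCounts 1.6.3 (strand setting 0), on an annotation whose path names Ensembl release 105 for GRCm39 with 92 spike-in transcripts added. The submitters' processing notes name STAR and DESeq2 without a version. The labels describe a directional kit, so strand was known to the libraries but not used in the counts. Because pairs from both strands are counted together, overlapping antisense genes cannot be told apart.

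Spike-in rows were kept out of library sizes and tests. Symbols were matched for 52081 of 55414 identifiers from GENCODE M21. Genes were kept with edgeR's filterByExpr at a minimum count of 10, which left 16167. edgeR 4.0.16 in R 4.3.3 fitted 1 mean per genotype and time over all 24 libraries, with TMM scaling and the quasi-likelihood test, and p-values were adjusted by the Benjamini-Hochberg method over all kept genes at a threshold of 0.05. Log2 CPM for the correlations used a prior count of 0.5. The fit was tested on simulated data. Replicate pairs differed by more than sampling noise, as chi-square values divided by their degrees of freedom lay between 1.44 and 2.27, and each library was kept as its own. Such values cannot show whether the libraries of a pair came from separate cultures. The spread between replicates that the fit shared over genes (common biological coefficient of variation) was 0.0206.

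The alternatives were DESeq2 1.42.0, its size factors, spike-in totals as the scale, no filter, a fit of the compared groups alone, a replicate block, the summed Lilrb4 pair and leaving out each library. The members and the gene lists were chosen with earlier results of these data known. Tests of the members that involve 0 h libraries had been planned, and their values are given as descriptions, since those libraries supplied the choice. The genes named from each list are up to 2 with the largest rise and 2 with the largest fall among those called the same way in both clones at 3, 6 and 9 h, all tested receptors of the IL-1 family and all tested binding partners. Also named are genes within 250 kb of a member that passed the filter, and the 3 genes with the highest correlation to each member, other than predicted genes.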

Additional observations from a re-analysis of the deposited data

Results flagged for a closer look

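The clones differed from each other in 6 values by a direct test (edgeR's quasi-likelihood test, adjusted p under 0.05). On the log2 scale Vsir was lower in KO2 than in KO1 by -1.09 at 3 h, -0.93 at 6 h and -0.77 at 9 h. Il18r1 was lower in KO2 by -1.27 at 3 h and -0.97 at 6 h. Lilrb4a was higher in KO2 by 0.30 at 3 h, where spike-in scaling gave -0.67.

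The change from 3 to 9 h differed between a clone and WT in 3 values, tested as an interaction. It was larger in KO1 than in WT by 0.91 for Lilr4b and by 0.79 for Lilrb4a, and larger in KO2 than in WT by 0.43 for Lilrb4a, a call lost with spike-in totals. No explanation of these differences was tested.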

How the results depend on the processing

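All 24 values of a clone against WT at 3, 6 and 9 h stayed lower and past the threshold with DESeq2, its size factors, no filter, a fit of the compared groups alone, a replicate block and each library left out. They were also called lower with spike-in totals, but that scale called between 15853 and 16069 of 16167 genes in these comparisons, with medians between -5.87 and -4.16, so it tells little about the receptors. Counts of calls that involve 0 h libraries are left out, since those libraries supplied the choice of genes. The counts of receptors called in the other comparisons moved more. Numbers of all genes called, in either direction, are given beside them. With DESeq2's size factors 1 of 4 was called from 3 to 6 h in KO2, against 2, and 9135 of 16167 genes. With spike-in totals, 4 were called between KO2 and KO1 at 6 h and 4 at 9 h, where 13366 and 14916 genes were. On that scale 1 was called from 6 to 9 h in WT (2787 genes) and 3 from 3 to 6 h in KO1 (7568 genes). In the KO2 test of the change from 3 to 9 h it called 0, and 388 genes. In fits of the compared groups alone 1 was called between KO2 and KO1 at 6 h, where 1789 of 14162 genes were. From 3 to 6 h in KO2 such fits called 1, and 8575 of 14054 genes. In these 2 comparisons DESeq2 called 1 and 1, beside 1510 and 8264 of 16167 genes. With the Lilrb4 pair summed, 1 was called from 3 to 6 h in KO2 (9099 of 16166 genes). In the KO1 test of the change from 3 to 9 h the summed fit also called 1 (3412 genes). By construction 3 features were tested there and not 4.

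Leaving out 1 library leaves 1 in its group, so log2 differences are given here and calls are not counted. For KO2 against KO1, Vsir ran from -1.15 to -1.03 at 3 h, -1.03 to -0.84 at 6 h and -0.84 to -0.71 at 9 h. Il18r1 ran from -1.59 to -1.03, -1.29 to -0.71 and -1.05 to -0.35 at the same times. In WT from 6 to 9 h, Lilrb4a ran from 0.30 to 0.36, Lilr4b from 0.09 to 0.30 and Il18r1 from 0.36 to 0.67. In KO2 from 3 to 6 h, Lilrb4a ran from -0.44 to -0.10 and Lilr4b from -0.50 to -0.17. The change from 3 to 9 h in KO2 against WT ran from 0.27 to 0.60 for Lilrb4a.

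With spike-in totals these log2 differences had the other sign: KO2 against KO1 at 3 h for Lilrb4a (-0.67) and Lilr4b (-0.68), the same at 6 h (-1.11 and -1.04), 0 to 3 h in KO1 for Il18r1 (-0.061), 0 to 3 h in KO2 for Lilrb4a (-0.65) and Il18r1 (-0.37), and 0 to 9 h in KO2 for Lilrb4a (-0.55) and Il18r1 (-0.19). Values near 0 also changed sign. Lilrb4a from 3 to 6 h in KO1 was 0.058 with DESeq2 and with its size factors and 0.027 in the compared groups alone. Lilrb4a from 0 to 3 h in KO2 was -0.0059 with the size factors and -0.0047 with DESeq2. Lilr4b from 0 to 9 h in KO2 was 0.045 with both and 0.047 in the compared groups alone. With 1 library left out, the ranges that crossed 0 were, for KO2 against KO1 at 6 h, -0.064 to 0.114 for Lilrb4a and -0.072 to 0.248 for Lilr4b. From 3 to 6 h in KO1 they were -0.025 to 0.018 for Lilrb4a and -0.277 to 0.0054 for Lilr4b. In KO2 they were -0.140 to 0.199 for Lilrb4a and -0.162 to 0.985 for Il18r1 from 0 to 3 h, -0.508 to 0.127 for Il18r1 and -0.160 to 0.030 for Vsir from 3 to 6 h, and -0.057 to 0.047 for Lilr4b from 0 to 9 h. For Il18r1 in the KO1 test of the change from 3 to 9 h the range was -0.023 to 0.280. The cause was not tested.

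Over all genes, spike-in totals moved the number called by over 1.5 times in 17 comparisons, for example to 15490 from 4416 for KO1 against WT at 0 h, to 14916 from 2010 for KO2 against KO1 at 9 h and to 388 from 3364 for the KO2 test of the change from 3 to 9 h. DESeq2 called 1265 genes between KO2 and KO1 at 9 h, against 2010.

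Replicate numbers are shared between groups, but the deviations of same-numbered libraries correlated between -0.0411 and 0.153 (median 0.0079, over 0.1 in 3 of 66 pairs of groups), so the numbers do not pair the libraries. A replicate block changed the call or sign of 0 of 104 values, and with it 4 of 4 were called in each comparison of a clone with WT at 3, 6 and 9 h. Over all genes it called between 5588 and 6287 of 16167 in those comparisons. Depth limits Il18r1 most, with as few as 9 counts in a KO2 library.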

Other observations

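Among the myeloid and mast cell markers, a few genes had counts in KO1 and WT and almost none in KO2. They were picked after their values were seen, and no test was made on them. Ctsg codes for cathepsin G, a protease of myeloid granules. It had 1571 counts over the 8 KO1 libraries, 2 over the 8 KO2 libraries and 1243 over the 8 WT libraries. Mcpt8, a mast cell and basophil protease, had 53 counts in KO1, 0 in KO2 and 49 in WT, and S100a9, a calcium-binding protein of granulocytes, had 32 in KO1, 0 in KO2 and 16 in WT. Cma1, another mast cell protease, did not share the pattern, with 139 counts in KO1, 232 in KO2 and 189 in WT.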
